A study of Drosophila melanogaster with 4 samples.

Results

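The genes described here build the junctions and the apical-basal polarity of epithelial cells in Drosophila melanogaster. The list names 34 genes, grouped by their known roles in adherens junctions and actomyosin, in cell polarity and in septate junctions. The rule that picks them uses names and no measured value, though the list was drawn up with earlier results of these data known. Of these, 33 matched an entry of the deposited tables through their FlyBase transcript identifiers, among 14061 genes that could be named and 12023 with reads. The basolateral gene scrib matched none and was not analysed here. All 33 had at least 100 reads in every library, as had 6884 genes in all, and they are described as 8 adherens and actomyosin genes, 10 polarity genes and 15 septate junction genes.

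RNA was measured by sequencing in wing imaginal discs from larvae of the third instar, the larval epithelial sacs that form the adult wing and part of the thorax. There were 4 libraries, 1 for each genotype, and each was made from 300 pooled discs, in 6 batches of 50. The 2 libraries called assays carried the sd::Gal4 driver, active in the wing territory of the disc, with either UAS::FH-cortoCD, the tagged chromodomain of the chromatin factor Corto with a nuclear localization signal, or UAS::RpL12-Myc, a tagged ribosomal protein L12. The 2 controls were sd::Gal4/+, which carries the driver alone, and the w1118 reference line. The question put to the assays was whether the 2 proteins change the transcripts of the same genes. With 1 library per genotype there was no replicate check, and the tests below compare the reads of pairs of libraries, not the genotypes. In bulk discs, fewer cells of a type and less RNA per cell cannot be told apart.

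In an insect epithelium, E-cadherin and its catenins join neighbouring cells in a belt of adherens junctions linked to actin and myosin. Above the belt, the Crumbs and Par complexes mark the apical domain, and the Scribble group of proteins holds them out of the basolateral membrane. Below it, septate junctions close the space between cells, with special proteins where 3 cells meet.

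Total counts were between 26833482 in w1118 and 44736060 in the RpL12-Myc-labelled library. The check of the transgenes bore out neither the labels nor their reverse and could not decide between them. In both assays corto was below sd::Gal4/+, but whether the entry read covers the chromodomain was not checked. RpL12 was higher by 0.49 on the log2 scale in the FH-cortoCD-labelled library and by 0.16 in the RpL12-Myc-labelled library. The log2 fold changes of corto were -0.58 and -0.29. Both genes were read at their most abundant entry alone. The paper's list of genes higher with FH-cortoCD holds further RpL12 entries, with larger rises before scaling. These were not used in the check. The genotype fields of these 2 libraries name the other transgene than their titles do. Both are thus called here by their titles, with the word labelled, and no direction is tied to a transgene. The summed level of 8 wing disc markers was 414, 404, 489 and 536 scaled reads per kilobase in the FH-cortoCD-labelled library, the RpL12-Myc-labelled library, sd::Gal4/+ and w1118, that of the 3 matched trachea markers 117, 108, 156 and 154, and that of 7 markers of glia and neurons 6.79, 6.89, 11.3 and 10.5. Both assays lay below both controls in these 3 sums, though not for every gene in them. In each library vvl made up most of the trachea sum and elav most of that of glia and neurons. Against sd::Gal4/+, vvl was at -0.45 and -0.59 on the log2 scale in the FH-cortoCD-labelled and RpL12-Myc-labelled libraries, and elav at -0.97 and -1.07. The trachea gene btl was at -0.13 and 0.03. Of the wing disc genes, en at 0.55 and 0.51 and nub at 0.25 and 0.13 were above 0, and the others were below 0. The summed levels of 4 muscle precursor markers, 55.9 to 65.6, and of 5 haemocyte markers, 11.6 to 14.5, did not separate the assays from the controls. The summed level of 5 fat body markers was 228 and 338 in the FH-cortoCD-labelled and RpL12-Myc-labelled libraries, 511 in sd::Gal4/+ and 21.5 in w1118. The part of these markers in the results below was not tested.

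Levels are scaled reads per kilobase of the gene's most abundant entry, with each library set to 1000000 counts after scaling by TMM, the trimmed mean of M-values. Where 4 values follow each other without names, they are those of the FH-cortoCD-labelled library, the RpL12-Myc-labelled library, sd::Gal4/+ and w1118, and where 2 log2 fold changes do, they are those of the 2 assays against sd::Gal4/+. An entry is a row of the tables that holds exons shared by a set of transcripts. The median level of the 33 genes was 71.3, against 20.6 for the 6884 genes that reached 100 reads in each library, and 32 of the 33 lay above the latter. The highest levels belonged to 3 septate junction genes. Fas3, a homophilic adhesion protein of the immunoglobulin family, had 273 in the FH-cortoCD-labelled library, 286 in the RpL12-Myc-labelled library, 244 in sd::Gal4/+ and 250 in w1118. Means over the 4 libraries were 256 for Atpalpha, the catalytic subunit of the sodium pump, and 255 for Lac, the immunoglobulin protein Lachesin. These means differ by less than the spread of either gene over the libraries. The lowest level was that of baz, the Par3 homologue, with 12.2, 12.0, 10.03 and 14.1 and the 2 controls enclosed both assays.

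**Figure D1:**
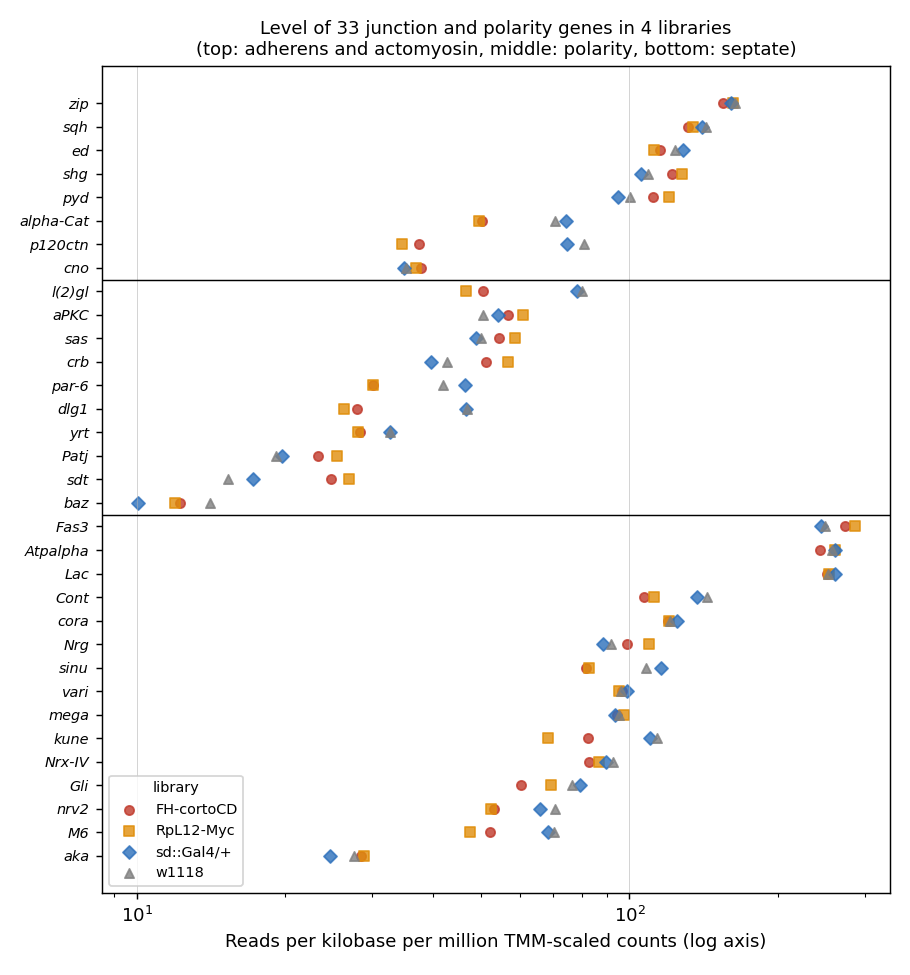
Level of each of the 33 genes in each of the 4 libraries, in reads per kilobase with each library set to 1000000 TMM-scaled counts, on a log axis, 1 point per library. Genes are grouped by role and ordered by their mean, from Fas3, Atpalpha and Lac near 255 or above down to baz at 12.1.

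Few of these genes passed the rule for a call, an adjusted P-value below 4e-18 in the binomial test of edgeR with Benjamini-Hochberg adjustment and an absolute log2 fold change above 1. Against sd::Gal4/+, 0 of the 33 were called in the FH-cortoCD-labelled library. In the RpL12-Myc-labelled library 0 were called higher and 1 lower, p120ctn. In w1118, and between the 2 assays, 0 were called. At an unadjusted P below 0.05 the same binomial test gave 30, 30, 20 and 20 genes in these 4 comparisons. edgeR's exact test, given the dispersion between the 2 controls, called 0 in each. Those controls are 2 genotypes and not replicates, so this dispersion only stands in for a replicate spread that was not measured. The limit of 4e-18 was set on a counting test without such a dispersion, and the exact test could hardly reach it here. Its 0 calls thus do not tell whether these genes changed.

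The rates over all genes give the scale. Of the 12023 genes with reads, 1.48% were called higher and 1.49% lower in the FH-cortoCD-labelled library, and 0.973% and 1.95% in the RpL12-Myc-labelled library. In w1118 these shares were 0.0499% and 0.416%, and between the 2 assays 0.158% and 0.233%. Among the 6884 genes that reached 100 reads in each library, the shares were 1.98% and 1.99%, 0.872% and 2.77%, 0.0145% and 0.203%, and 0.145% and 0.0% in the same order. The counts of 0 and 1 among the 33 genes lie near this background and are no result about the junction genes. The paper chose its limit on the adjusted P-value so that few transcripts differed between w1118 and sd::Gal4/+. The low shares in w1118, and the absence of calls among the 33 genes there, are thus partly built into the rule. They are no independent measure of how much the controls differ.

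The median log2 fold change of the 33 genes was -0.06 in the FH-cortoCD-labelled library, -0.05 in the RpL12-Myc-labelled library and 0.02 in w1118, each against sd::Gal4/+. Over the 6884 genes the medians were 0.01, 0.04 and -0.01. Both assays share sd::Gal4/+, so their values are not independent of each other. The range of the 33 genes was -0.99 to 0.52 in the first, -1.11 to 0.65 in the second and -0.16 to 0.49 between the controls, and between the 2 assays it was -0.21 to 0.27. The SD over the 33 genes was 0.353 and 0.418 for the assays against sd::Gal4/+, 0.112 between the controls and 0.0974 between the assays.

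**Figure D2:**
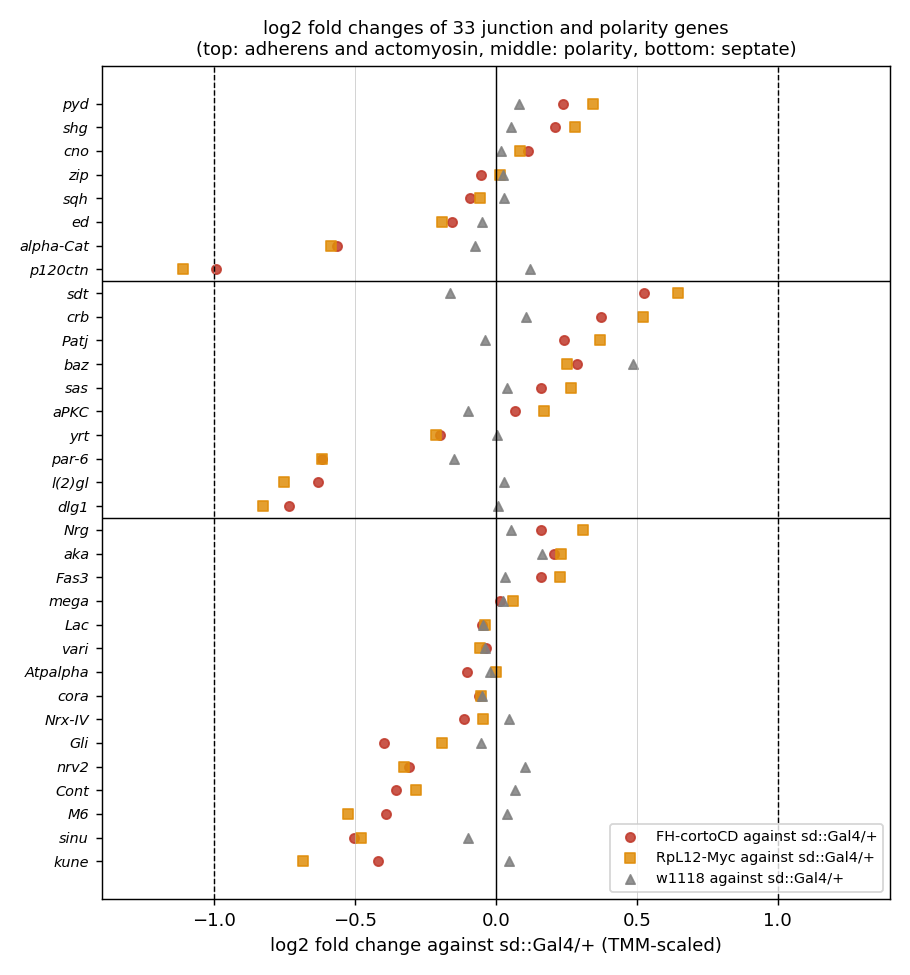
log2 fold change of each of the 33 genes against sd::Gal4/+ at its most abundant entry, for the 2 assay libraries and for w1118, with dashed lines at the limits of -1 and 1. Only p120ctn in the RpL12-Myc-labelled library lies beyond a limit, at -1.11, and the w1118 values lie between -0.16 and 0.49.

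A second reading used both controls. A gene stood apart when both assays lay above, or both below, both controls with a log2 gap above 0.5. Among the 33 genes, 1 stood apart as higher, sdt, and 3 as lower, p120ctn, dlg1 and l(2)gl. Over the 6884 genes 5.78% stood apart as higher and 7.02% as lower. The genes just outside this limit were alpha-Cat with a gap of -0.49 and par-6 with -0.47, and the gene just inside was sdt with 0.52. With all entries of a gene summed, 0 stood apart as higher and 4 as lower, and 2 of the genes, p120ctn and l(2)gl, were apart in both ways. The summed gap was 0.09 for sdt and -0.37 for dlg1, which were then inside the limit, and -0.52 for alpha-Cat and -0.50 for par-6, which were beyond it. With any gap above 0, 11 were higher and 16 lower, against 39.8% and 35.1% of all, and with a gap above 1 there were 0, against 0.712% and 1.48%. Against sd::Gal4/+ alone, 1 gene was higher by more than 0.5 in both assays and 5 were lower, and the shares of all genes were 6.99% and 8.51%.

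Among the adherens junction and actomyosin genes, p120ctn was called lower in 1 assay and alpha-Cat had values below both controls without a call. p120ctn (FBgn0260799, chromosome 2R:482798-496995, dm3), which encodes the catenin that binds the juxtamembrane part of E-cadherin, had 4240 reads in the FH-cortoCD-labelled library, 4057 in the RpL12-Myc-labelled library, 7089 in sd::Gal4/+ and 6066 in w1118. As levels these were 37.5, 34.5, 74.5 and 80.9, so both assays lay below both controls. Relative to sd::Gal4/+ the value on the log2 scale was -0.99 with a 95% exact interval of -1.05 to -0.94 for counting error in the first assay, and -1.11 with -1.17 to -1.06 in the second, while that of w1118 was 0.12. With the dispersion of the controls, edgeR's exact test did not reach the limit of 4e-18, which ended the call. Without scaling its values were -0.74 and -0.81, with no call, and against w1118 they were -1.11 and -1.23, a call in both assays.

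alpha-Cat, which links the cadherin complex to actin, had levels of 50.3 and 49.6 in the FH-cortoCD-labelled and RpL12-Myc-labelled libraries, 74.4 in sd::Gal4/+ and 70.7 in w1118. Its log2 fold changes were -0.56 and -0.59, which did not pass the limit of 1. The level of shg, the gene of Drosophila E-cadherin itself, was 122, 128, 105 and 109, with log2 fold changes of 0.21 and 0.28. The values of shg were thus above 0 and those of p120ctn and alpha-Cat below 0. The beta-catenin gene arm, which belongs to the other pathway genes described further on and was named after its values were seen, had levels of 360, 405, 369 and 358 and was at -0.04 and 0.14.

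The other 5 genes of this group had log2 fold changes between -0.19 and 0.34. The highest level was that of zip, the heavy chain of non-muscle myosin II, with 155, 162, 161 and 164, and its log2 fold changes were -0.05 and 0.01. The lowest was that of cno, the afadin homologue that links junctions to actin, with 37.7, 36.9, 34.8 and 35.3 and log2 fold changes of 0.11 and 0.09. Between them lay sqh, the regulatory light chain of the same myosin, with -0.09 and -0.06, ed, the adhesion protein Echinoid, with -0.16 and -0.19, and pyd, the ZO-1 homologue, with 0.24 and 0.34, or 0.014 and 0.020 with its entries summed. The medians over the group were -0.07 and -0.02.

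Among the polarity genes the apical members other than par-6 and the basolateral members lay on opposite sides of zero at their most abundant entries, except that yrt was above 0 without scaling and baz below 0 against w1118. At the 3′ entries described further on, sdt, Patj and aPKC were below 0 as well, and with its entries summed aPKC was at -0.24 and -0.21. Of the 7 apical genes, 6 had a value above 0 in both assays, with medians of 0.24 and 0.27. All 3 basolateral genes measured had values below 0 at their most abundant entries, with medians of -0.63 and -0.75. That entry belongs to 1 transcript in dlg1 and is the 3′ entry in l(2)gl. Other dlg1 entries had both signs, with 0.36 and 0.29 at the entry shared by 13 transcripts and -0.12 and -0.16 at that shared by 11. None of the 10 was called, and the difference between the 2 subgroups was not tested.

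sdt (FBgn0261873, chromosome X), the apical scaffold that binds Crumbs, had 2123 and 2403 reads in the FH-cortoCD-labelled and RpL12-Myc-labelled libraries, 1240 in sd::Gal4/+ and 872 in w1118. Its levels were 24.7, 26.9, 17.2 and 15.3, so both assays lay above both controls. The log2 fold changes were 0.52 and 0.65, with -0.16 for w1118, and with its entries summed they were 0.09 and 0.11. crb itself, the transmembrane determinant of the apical domain, had levels of 51.1, 56.7, 39.5 and 42.5 and log2 fold changes of 0.37 and 0.52.

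Patj, a further protein of the Crumbs complex, was at 0.24 and 0.37. sas, an apical transmembrane protein, was at 0.16 and 0.27 and aPKC, the kinase of the Par complex, at 0.07 and 0.17. For baz the value between the controls, 0.49, was larger than the values of the assays, 0.29 and 0.25. The exception among the apical genes was par-6, the partner of aPKC, whose levels were 30.2 and 30.2 in the assays, 46.3 in sd::Gal4/+ and 41.8 in w1118, and whose value was -0.62 in each assay.

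A pair of tumour suppressors of the basolateral side, dlg1 and l(2)gl, stood apart from both controls at their most abundant entries. dlg1 (FBgn0001624, chromosome X), the membrane-associated guanylate kinase Discs large, had 2713 and 2647 reads in the FH-cortoCD-labelled and RpL12-Myc-labelled libraries, 3792 in sd::Gal4/+ and 3000 in w1118. Its levels were 28, 26.3, 46.6 and 46.8 and its log2 fold changes -0.73 and -0.83, or -0.37 and -0.46 with its entries summed. l(2)gl (FBgn0002121, chromosome 2L), which encodes Lethal giant larvae and had the highest mean level of the polarity group at 63.8, had levels of 50.5, 46.5, 78.4 and 80.0 and log2 fold changes of -0.63 and -0.75. yrt, the FERM protein Yurt that limits Crumbs, had -0.20 and -0.21. edgeR's exact test called neither dlg1 nor l(2)gl, with a dispersion from the 2 controls, which are 2 genotypes and not replicates.

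Of the 15 septate junction genes, 11 had a value below 0 in each assay at their most abundant entry, with medians of -0.10 and -0.05. Without scaling, cora, Nrx-IV, vari, Atpalpha and Lac were above 0 in both assays. With entries summed, vari, at 0.22 and 0.26, and nrv2, at 0.004 and 0.003, were above 0 in both assays, and Fas3 was below 0 in both. Of the 15 genes, 0 stood apart from both controls by more than 0.5. The claudin-like genes, which encode small transmembrane proteins of the septate junction, differed in their values, none with a call. kune had levels of 82.3, 68.4, 110 and 114 and log2 fold changes of -0.42 and -0.69, and its difference of 0.27 between the 2 assays was the largest of the 33 genes. sinu was at -0.50 and -0.48, and mega at 0.01 and 0.06, or 0.52 and 0.60 with its entries summed.

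Among the scaffold and adhesion genes, the 5 nearest to zero at their most abundant entry were cora, Nrx-IV, vari, Lac and Atpalpha. This did not hold with entries summed, where vari was at 0.22 and 0.26 and Atpalpha at -0.30 and -0.24. cora, the FERM protein Coracle, was at -0.06 and -0.05, Nrx-IV, the neurexin, at -0.11 and -0.05, and vari, a membrane-associated guanylate kinase, at -0.04 and -0.06. Lac was at -0.05 and -0.04, Atpalpha at -0.10 and 0.00 and Fas3 at 0.16 and 0.23. Nrg, the L1-type adhesion protein Neuroglian, was at 0.16 and 0.31, or -0.09 and 0.02 with its entries summed. nrv2, the beta subunit of the sodium pump, was at -0.31 and -0.33, or 0.004 and 0.003 with its entries summed. Cont, the contactin, was at -0.36 and -0.29. At the tricellular junctions, Gli, the gliotactin that marks them, was at -0.40 and -0.19 and M6, a proteolipid protein, at -0.39 and -0.52. aka, the large protein Anakonda, was the lowest septate gene, with levels of 28.5, 29.0, 24.7 and 27.7 and log2 fold changes of 0.20 and 0.23.

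These values describe 1 entry of each gene, and entries of the same gene differed. Of the 33 genes, 21 had more than 1 entry that reached 100 reads in each library. Their entries had values of both signs in 18 genes in the FH-cortoCD-labelled library, in 16 in the RpL12-Myc-labelled library and in 14 in w1118. The range between the lowest and the highest entry of a gene was above 1 on the log2 scale in 11, 10 and 1 of them, with medians of 1.04, 0.87 and 0.27. Entries of a gene overlap in part and are not independent.

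In the assays, entries near the 3′ end mostly had lower values than those near the 5′ end. For 17 of the genes, an entry nearest the 5′ end and one nearest the 3′ end, not overlapping and with at least 100 reads in every library, could be compared. This comparison was chosen after seeing the data. The 5′ entries had a median of 0.16 in the FH-cortoCD-labelled library and 0.23 in the RpL12-Myc-labelled library, and the 3′ entries -0.63 and -0.66. The 3′ entry was lower than the 5′ entry by more than 0.5 in 13 of 17 genes in each assay and in 1 of 17 in w1118, which was zip. Over 1681 genes with 2 such entries this held for 42.1%, 41.0% and 2.97%. The reads of the 3′ entry per read of the 5′ entry were lower in both assays than in both controls for 14 of the 17 genes and higher for 1, baz, against 65.0% and 14.2% of the 1681. Whether the junction genes differ from the other genes in this was not tested. The 2 entries of a gene can belong to different sets of transcripts, and the part of this in the ratios was not tested.

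**Figure D3:**
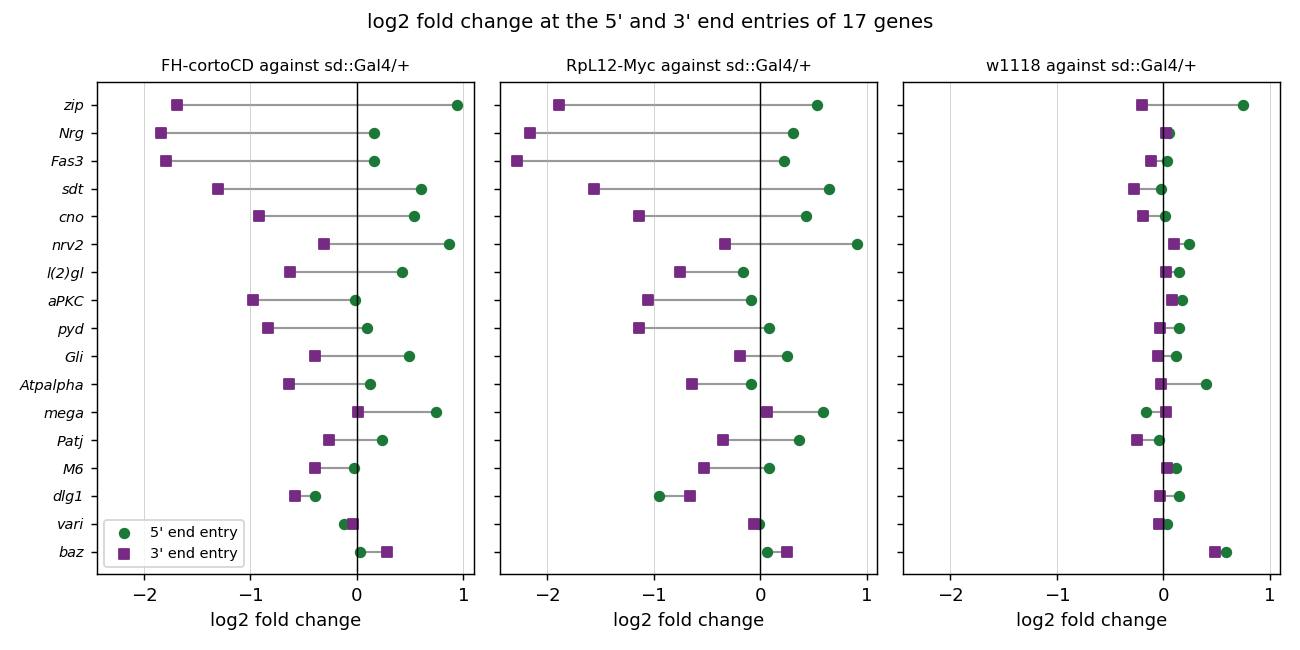
log2 fold change against sd::Gal4/+ at the 5′ entry (circle) and the 3′ entry (square) of 17 genes, joined by a line, with 1 panel for each of the FH-cortoCD-labelled library, the RpL12-Myc-labelled library and w1118. The squares lie to the left of the circles by more than 0.5 for 13 genes in each assay panel and for 1 gene, zip, in the w1118 panel.

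In Nrg the 5′ entry (chromosome X, shared by 7 transcripts) had 16379, 18879, 12322 and 10064 reads in the FH-cortoCD-labelled and RpL12-Myc-labelled libraries, in sd::Gal4/+ and in w1118. The 3′ entry (shared by 5 transcripts) had 1144, 955, 3445 and 2754. There were thus 6.98 and 5.06 reads at the 3′ entry per 100 at the 5′ entry in the assays, and 27.96 and 27.4 in the controls. The 5′ entry was at 0.16 and 0.31, and the 3′ entry at -1.84 and -2.16, a call in both.

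With its entries summed, Fas3 was at -0.36 and -0.35. It had 13.4 and 9.08 reads at its 3′ entry per 100 at the 5′ entry in the assays. In the controls these values were 51.8 and 46.7. The 5′ entry is shared by 5 transcripts and the 3′ entry by 2. The 3′ entry (chromosome 2L:18392245-18393441, dm3) had 2666, 1972, 7762 and 5629 reads and was at -1.79 and -2.28. Its 4 entries between the ends that reached 100 reads in each library were between -0.92 and -0.39 in the FH-cortoCD-labelled library. Each Fas3 entry downstream of the first that reached this limit had lower values in both assays than in sd::Gal4/+.

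In sdt the direction turned within the gene. The most abundant entry was higher in both assays, as given above, while the 3′ entry, shared by 9 transcripts, had 588 and 514 reads in the assays, 1224 in sd::Gal4/+ and 797 in w1118 and was at -1.31 and -1.56. There were 35.4 and 28.9 reads at the 3′ entry per 100 at the 5′ entry in the assays and 133 and 112 in the controls. For cno these values were 21.6 and 20.0 against 59.3 and 51.4.

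In zip the 3′ entry was at -1.69 and -1.89, and the most abundant entry at -0.05 and 0.01. The 5′ entry of zip is short, with 156 reads in sd::Gal4/+, and was at 0.94 and 0.54, with 0.75 in w1118, so the 2 controls differed there as well.

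**Figure D4:**
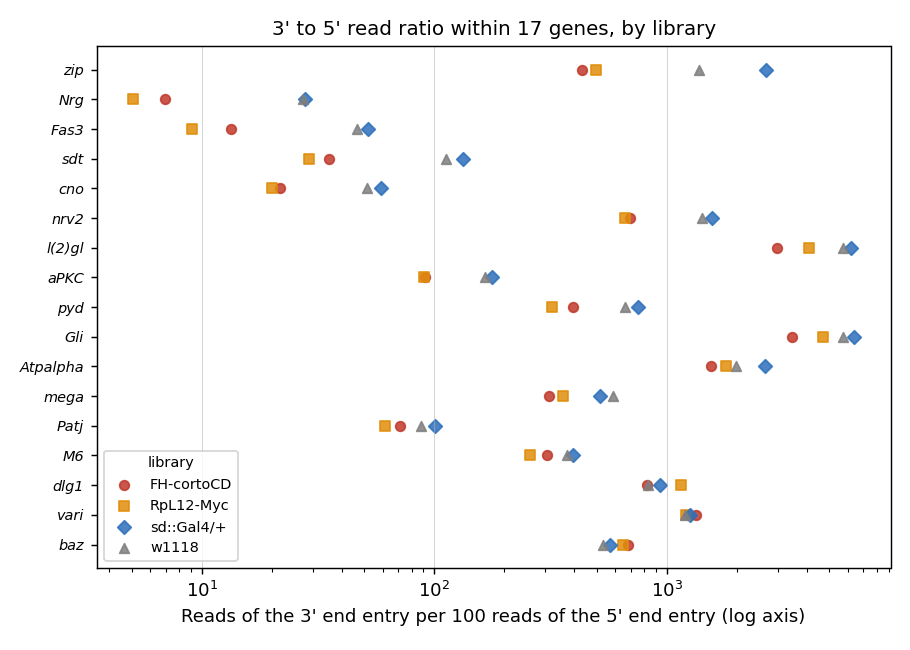
Reads of the 3′ entry per 100 reads of the 5′ entry in each library, on a log axis, for the same 17 genes. For Nrg the assays lie at 6.98 and 5.06 and the controls at 27.96 and 27.4, and for 14 genes both assays lie below both controls.

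The basolateral genes that stood apart varied along their length too. In dlg1 the values of the 13 entries that reached 100 reads in each library were between -0.73 and 0.57 in the FH-cortoCD-labelled library and between -0.96 and 0.55 in the RpL12-Myc-labelled library. In l(2)gl the most abundant entry is the 3′ entry, at -0.63 and -0.75, and its 5′ entry, with 215 reads in sd::Gal4/+, was at 0.42 and -0.16. The 12 genes with 1 entry of at least 100 reads could not be divided in this way. They include p120ctn, alpha-Cat, par-6, kune and sinu, and 9 of the 12 had values below 0 in each assay, with medians of -0.26 and -0.24 and of 0.04 in w1118.

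Called entry by entry, 121 of the 198 entries of the 33 genes had at least 100 reads in every library. In the FH-cortoCD-labelled library 0 of these were called higher and 6 lower, in 4 genes, and in the RpL12-Myc-labelled library 0 higher and 11 lower, in 8 genes. Those of the former were in Fas3, Nrg, sdt and zip, and the latter added aPKC, cno, p120ctn and pyd. Of 12972 entries in all, 2.41% were called higher and 3.45% lower in the first comparison, and 1.41% and 4.95% in the second. Except for p120ctn, the genes with a called entry lay within 0.65 of zero in both assays at their most abundant entry.

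Of 50 other genes of junctions, polarity and actomyosin, 44 had at least 100 reads in every library. In each assay 0 of these were called higher and 3 lower, and in w1118 0 were called, with medians of 0.12, 0.13 and 0.00. Over the 6884 genes, 1.99% were called lower in the first assay and 2.77% in the second. Of the same genes 1 stood apart from both controls as higher and 5 as lower, against 5.78% and 7.02% of all. The 3 called lower were Zyx, the focal adhesion and junction protein Zyxin, Cdc42, the GTPase that binds Par-6, and Rap1, the GTPase that acts through Canoe. Rap1 had levels of 49.0 and 49.7 in the FH-cortoCD-labelled and RpL12-Myc-labelled libraries, 127 in sd::Gal4/+ and 110 in w1118, and was at -1.38 and -1.36. Zyx was at -1.18 and -1.55. Cdc42 was at -1.08 and -1.01, and its value in w1118 was -0.56.

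The counts do not use strand, so reads of overlapping genes cannot be told apart. In the reference annotation 11 of the 33 genes overlap an exon of another annotated feature, 8 of them by more than 100 bases. The longest overlap is that of M6 with SAK on the opposite strand, 609 bases. Of the genes that stood apart, l(2)gl overlaps 2 transposon insertions, by 62 and 21 bases.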

How the data were processed

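Wing imaginal discs were pooled by genotype, and polyadenylated RNA was sequenced as read pairs without strand. Per the paper's methods and the submitters' processing notes, the authors aligned reads with Bowtie to dm3, removed reads with several matches and deposited raw counts per annotation entry for each read of a pair, beside a ratio, each count as a fraction of its library's transcript alignments, which served here to check labels only. Columns were taken by library title.

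The counts of both mates were summed. Mates come from 1 fragment, so counts overstate independent observations. Entries were named from the FlyBase transcripts of the reference annotation: 28959 of 30950 entries, with 94.2% of counts. Retired transcripts took the gene of those sharing their entry. Only names and exon overlaps came from it, and coordinates are those of the files. TMM sizes came from all 4 libraries. Pairs of libraries were compared with binomTest of edgeR 4.0.16 (R 4.3.3) and Benjamini-Hochberg adjustment over all entries. A gene was called at its most abundant entry, if its adjusted P-value was under 4e-18 and its log2 fold change beyond 1 in either direction. Counts of 0 were set to 3 in fold changes. On simulated counts with 200 entries changed by 2 on the log2 scale, 200, 200 and 197 were recovered for FH-cortoCD, RpL12-Myc and w1118 against sd::Gal4/+, with 0 false calls.

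All members are named, with full values for those called, apart, or highest or lowest in their group; of other pathway genes, those called in both assays. Values of further members were added after the data were seen. The members and lists were chosen with earlier results of these data known. Promoter motifs were not analysed here. Alternatives were other scalings (DESeq2 1.42.0 size factors, total counts, none), a count minimum of 10, each read of the pair, summed entries, w1118 as control, the exact test, a loess correction for length and other limits.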

Additional observations from a re-analysis of the deposited data

How the results depend on the processing

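No paired analysis was possible because each genotype had 1 library and the labels carry no replicate numbers, and no replicate could be left out. For the FH-cortoCD-labelled library, the 0 called genes became 1 with total counts, 1 with the second reads alone, 1 with w1118 as control, p120ctn each time, and 7 with a log2 limit of 0.5. For the RpL12-Myc-labelled library, the 1 called gene became 0 without scaling, 0 with the exact test and 9 with the limit of 0.5. The 4 genes apart became 27 with a gap above 0 and 0 with a gap above 1. The median in the FH-cortoCD-labelled library was 0.19 without scaling, -0.12 with total counts and 0.030 at the 5′ entry, the last chosen after seeing the data, and that in the RpL12-Myc-labelled library was 0.26 without scaling and 0.024 with the loess correction. Leaving out the scaling shifted the median value by 0.28, since the assays were sequenced more deeply, and turned the sign of 19 of 66 values. Summing the entries of a gene, which overlap in part, turned 11 of 66 and moved 31 beyond counting error, and kept 2 of the 4 genes apart. The loess correction turned 10 and moved 50. No value past 0.5 changed sign under any scaling, and 2 did at the 5′ entry and 2 at the 3′ entry, of 34 values each. The cause of these changes was not tested.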
